A study of Mus musculus with 13 samples.

Results

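Liver RNA of 5 male B6C3F1 mice that had drunk phenobarbital (PB) in early life was compared with that of 4 mice kept on water, and the members of the comparison are these 9 arrays of the 13 in the series. Each array was put in its group by the treatment label. PB mice received 0.06% phenobarbital in the drinking water from 7 days of age for 10 weeks and then deionized water for 90 weeks, while control mice received deionized water throughout. The remaining 4 mice received 3.5 g/L dichloroacetic acid (DCA) over the same weeks, and they served as a second group against which the PB arrays could be set. The age label gives 7 days for every mouse, which by the design text is the age at the start and not at tissue collection. B6C3F1 is a hybrid strain used in carcinogenicity tests, and the livers were archived frozen pieces, each from an animal with its own number, measured on Illumina bead arrays. The comparison asked what differed in the liver long after the exposure had ended.

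Phenobarbital is a classic inducer of drug metabolism in liver. It activates the constitutive androstane receptor (CAR) in hepatocytes, which together with the pregnane X receptor (PXR) turns on cytochromes P450, glutathione transferases, conjugating enzymes and transporters, and it promotes liver tumours in rodents. Cytochromes P450 are haem enzymes that oxidise drugs, steroids and fatty acids, and several mouse P450 genes are expressed mainly in one sex under the control of growth hormone.

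Values are normalized log2 intensities, and a difference is PB minus control on that scale with the standard error (SE) of the fit. Genes passed the test at a limma p-value adjusted by Benjamini-Hochberg over all 8431 genes tested of less than 0.05. Levels of different genes are not compared, since each probe has its own brightness, and the number of arrays limits the precision. Mean raw intensity ran from 188.6 to 356 on PB arrays and from 234.1 to 388.3 on control arrays, with 7141 to 7821 and 7200 to 7842 genes detected. Of 9 hepatocyte markers, 7 were detected on all 9 arrays, among them Ttr, Apoa1, Trf and Cps1, while Tat was detected on none and Alb, albumin, on 1 of 5 PB and 1 of 4 control arrays. The Alb row was near the lowest levels of the arrays (means of 4.57 in PB and 4.51 in control). PB replicate 1 stood apart, with 91 genes more than 1 log2 unit above every other array and 67 more than 1 below, against at most 19 and 12 on any other array. Its median correlation with the other PB arrays was 0.948, where the other 12 arrays had 0.961 to 0.985 within their groups. Beside many of the results, the value without it is given.

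In PB livers 7 genes passed the test, 0.083% of those tested. Higher in PB were Cyp2b13, Cyp2d12, Prss8 and Lss (4 genes, 0.0474%), and lower were Metrn, Pigt and Bad (3 genes, 0.0356%). All 7 had every PB array on one side of every control array, which held for 3.48% of the genes tested. Over all 8431 genes the median difference was -0.01, with 49% of differences above 0, and 852 genes (10.1%) had an unadjusted p under 0.05. Differences of more than 1 were found at 56 genes, and 28 genes had a difference below -1. With the standard background procedure, in which background is fitted on all rows of the table, 2 genes passed, without PB replicate 1 the count was 5, and leaving out any 1 array gave 1 to 13. Cyp2d12 passed in 21 of 22 alternative settings and the others in 7 to 16.

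**Figure D1:**
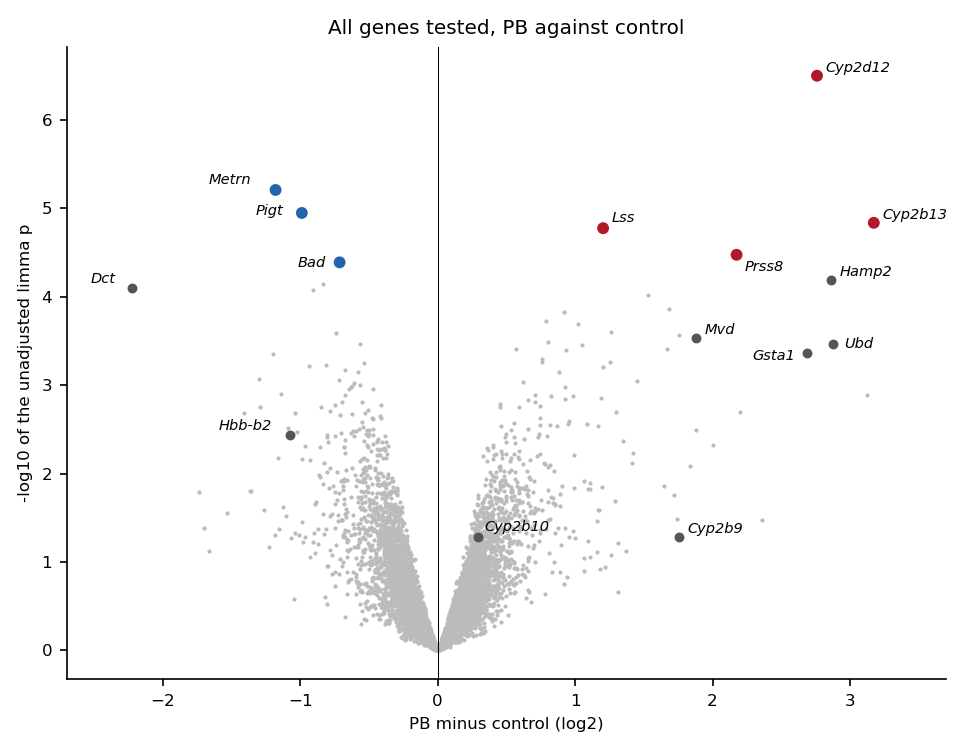
Log2 difference of PB minus control (x axis) against -log10 of the unadjusted limma p (y axis) for the 8431 genes tested, 1 point per gene. The 4 red points on the right and 3 blue points on the left are the genes that passed the test, with Cyp2d12 highest on the y axis, and dark grey points are further genes named in the text.

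Cyp2d12, a P450 of the Cyp2d family on chromosome 15, had normalized log2 intensities of 8.35, 7.89, 8.23, 8.62 and 8.71 on the PB arrays, against 4.91, 6.03, 6.44 and 5.02 on the control arrays. No PB array came within 1 log2 unit of a control array. The difference was 2.76 ± 0.30 (6.78-fold, limma adjusted p = 0.00267), and means were 8.36 ± 0.33 in PB and 5.60 ± 0.76 in control (SD, n = 5 and 4). The DCA arrays, at 6.18 to 7.00, were all below the PB arrays, and PB minus DCA was 1.86 ± 0.30 (limma adjusted p = 0.0435). The difference was 1.67 with the standard background procedure and passed (limma adjusted p = 0.00656, where the alternatives ranged from 0.000614 to 0.514).

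Cyp2b13, a Cyp2b P450 on chromosome 7 that is expressed mainly in female mouse liver, stood at 7.75, 7.30, 9.93, 8.28 and 7.51 on the PB arrays and at 6.25, 4.45, 4.33 and 4.89 on the control arrays. PB replicate 3 was the highest and control replicate 1 the highest of its group, and the groups did not overlap. The gene was detected on all PB arrays and on 2 of 4 control arrays. It rose by 3.17 ± 0.48 (9.02-fold, limma adjusted p = 0.0283), and against DCA the difference was 3.53 ± 0.48 (limma adjusted p = 0.0198). With the standard background procedure the difference was 1.60 and did not pass (limma adjusted p = 0.316, where the alternatives ranged from 0.00921 to 0.514). The call was also lost without control replicate 2, 3 or 4 or PB replicate 5.

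Prss8, prostasin, a membrane-anchored serine protease that activates epithelial sodium channels, had 9.15, 7.08, 7.35, 7.12 and 7.42 on the PB arrays, against 5.27, 5.16, 5.89 and 5.47 on the control arrays. PB replicate 1 was far above the rest of its group, and the other 4 PB arrays were still above every control array. The difference was 2.18 ± 0.36 (4.52-fold, limma adjusted p = 0.0472) with replicate 1 and 1.79 without it. With the standard background procedure it was 1.05 and did not pass (limma adjusted p = 0.402, where the alternatives ranged from 0.00445 to 0.654). The call was kept without PB replicate 1 or 4 and lost without any 1 of the other 7 arrays. Against DCA, whose arrays had 5.13 to 5.99, the difference was 2.18 (limma adjusted p = 0.0465). Among the 9 tested genes of membrane serine proteases and their inhibitors it was the 1 that passed, 3 differences were above 0 and the list's median was -0.12, and -0.24 to -0.01 when 1 array was left out. This list was chosen with earlier results of these data known. Klkb1, plasma prekallikrein, had a difference of -0.36 ± 0.19.

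Lss, lanosterol synthase, which closes the sterol ring, was at 8.04, 7.52, 7.70, 7.36 and 7.90 on the PB arrays and at 6.47, 6.62, 6.70 and 6.20 on the control arrays. The spread within each group was small, with an SD of 0.28 in PB and 0.22 in control. It rose by 1.20 ± 0.19 (2.30-fold, limma adjusted p = 0.0283), while PB minus DCA was 0.72 ± 0.19 (limma adjusted p = 0.157). Without PB replicate 1 the difference was 1.12 and did not pass (limma adjusted p = 0.0617), and of the 9 arrays only control replicate 2 and PB replicate 4 could be left out with the call kept. With the standard background procedure it was 0.77 (limma adjusted p = 0.138, where the alternatives ranged from 0.0224 to 0.654).

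Metrn, meteorin, a secreted factor that acts on glia, stood at 6.01, 6.45, 6.25, 6.37 and 6.41 on the PB arrays and at 7.19, 7.20, 7.72 and 7.79 on the control arrays, and fell by 1.18 on the log2 scale (SE 0.17, 2.26-fold lower, limma adjusted p = 0.0262). Pigt, part of the enzyme complex that fixes proteins to their GPI membrane anchors, had 7.15, 7.11, 6.91, 7.05 and 7.13 in PB and 7.96, 8.46, 7.94 and 7.89 in control. Its difference was -0.99 ± 0.15 (limma adjusted p = 0.0283) and -0.87 against DCA (limma adjusted p = 0.0465). The 5 PB arrays were close together, with an SD of 0.10. Bad, a BH3-only protein that promotes apoptosis, had 6.94, 6.91, 6.59, 6.90 and 6.94 in PB and 7.48, 7.65, 7.66 and 7.49 in control, a difference of -0.71 ± 0.12 (limma adjusted p = 0.0493). With the standard background procedure Metrn had -0.65 (limma adjusted p = 0.15, where the alternatives ranged from 0.00921 to 0.514) and Pigt -0.85 (limma adjusted p = 0.138, alternatives from 0.0129 to 0.654), and neither passed. Bad had -0.48 with that procedure and passed (limma adjusted p = 0.0375, alternatives from 0.0304 to 0.654). Metrn lost its call without control replicate 3 or 4 or PB replicate 5, Pigt without control replicate 1, 3 or 4 or PB replicate 2, 3 or 5, and Bad without any 1 of the 9 arrays. Pigt and Bad passed alone within their lists, which were chosen with earlier results of these data known. Of 16 tested genes of GPI anchor synthesis and transfer, 8 differences were above 0 and the median was -0.04, with Pigx, of the first mannosyltransferase, at -0.53 ± 0.20. Of 12 tested Bcl2 family genes, 6 were above 0 and the median was -0.01. Relative to all genes, the GPI median was 0.03 with median scaling and the Bcl2 median was 0.01 with cyclic loess.

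Set against DCA, the PB arrays differed at 9 of 8431 genes (0.107%) in limma. Of the 7 genes that passed against control, 4 passed here as well, Cyp2b13, Cyp2d12, Prss8 and Pigt, and all 7 had the same sign. Both comparisons use the same PB arrays, so the second is not an independent repeat. Metrn differed from DCA by -0.84 ± 0.17 (limma adjusted p = 0.0806) and Bad by -0.42 ± 0.12 (limma adjusted p = 0.182).

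**Figure D2:**
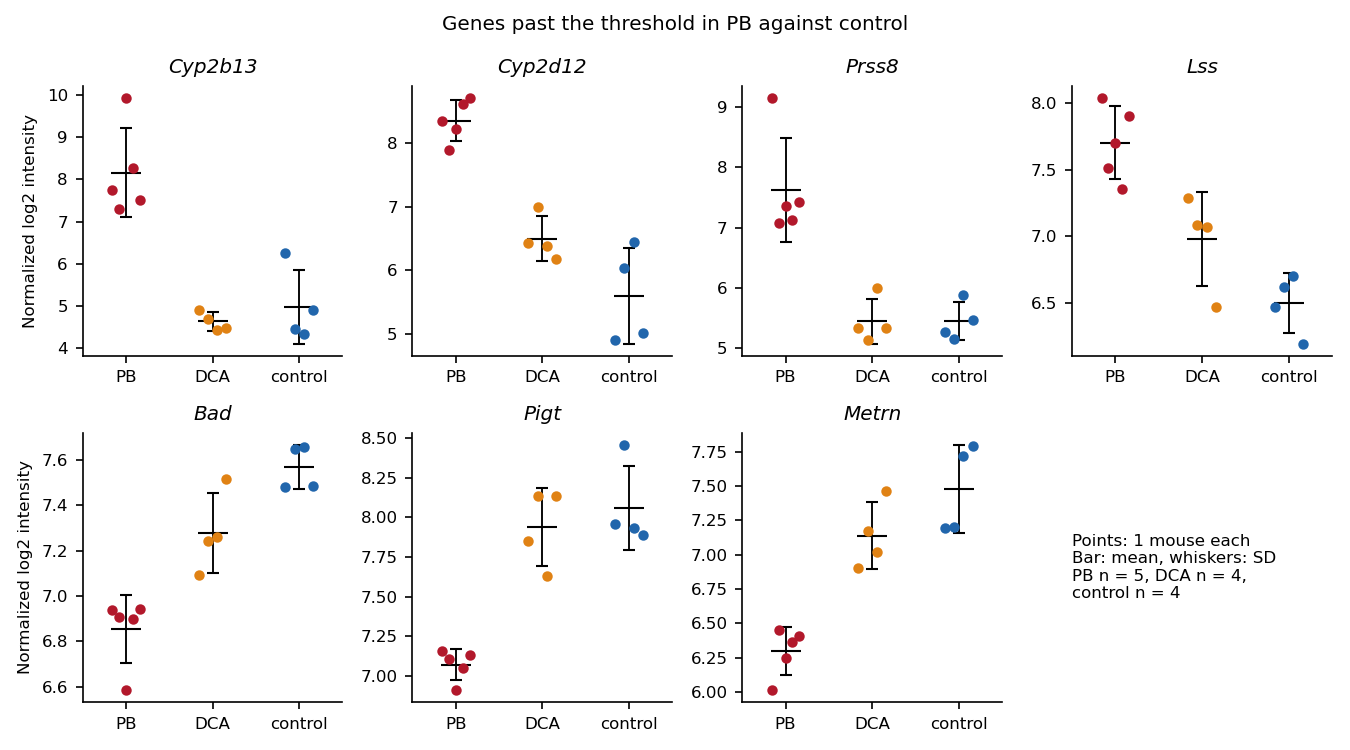
Normalized log2 intensity (y axis) of the 7 genes that passed the test, 1 point per mouse, in PB (n = 5), DCA (n = 4) and control (n = 4), with the mean and SD. PB points lie above all control points for Cyp2b13, Cyp2d12, Prss8 and Lss and below them for Bad, Pigt and Metrn, and the scale of each panel differs.

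Most other P450 genes had differences within 0.5 of 0 between PB and control, and a few were beyond 1 in either direction. Of 76 P450 genes on the array, 46 were tested. The 2 named above passed, 28 differences were above 0, the median was 0.07 and 33 were within 0.5 of 0. Of the 46 differences, 5 were above 1 and 1 was below -1, which held for 0.664% and 0.332% of all genes tested. Without PB replicate 1, 23 differences were above 0 and the median was 0.01. It was 0.02 without control replicate 4 or PB replicate 4, 0.12 without control replicate 1 and 0.13 without control replicate 3, and with median scaling it was -0.08 relative to all genes. All 4 tested Cyp2b genes had differences above 0, from 0.29 at Cyp2b10 to 3.17 at Cyp2b13, and so had the 7 tested Cyp2d genes, from 0.03 at Cyp2d40, which was -0.19 without control replicate 4, to 2.76 at Cyp2d12. The next Cyp2d gene, Cyp2d13, had 0.59 ± 0.37, and 0.97 without PB replicate 1.

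Cyp2b10, a P450 that CAR ligands strongly induce in mouse liver, was at 5.01, 4.93, 4.56, 4.89 and 4.59 on the PB arrays and at 4.86, 4.38, 4.36 and 4.41 on the control arrays. These levels are close to background: the gene was detected on 3 of 5 PB and 1 of 4 control arrays, and the groups overlapped. Its difference was 0.29 ± 0.14 (limma adjusted p = 0.499). Cyp2b9, like Cyp2b13 a gene of female mouse liver, had 8.60, 8.32, 10.47, 8.58 and 7.96 in PB and 9.63, 5.47, 5.19 and 7.83 in control. Control replicate 1 reached PB levels and control replicate 4 lay just below them, and the difference of 1.76 ± 0.83 did not pass (limma adjusted p = 0.499). Cyp2b23 had 6.54, 6.87, 8.75, 6.29 and 4.78 in PB, and in control 6.96, 4.25, 4.30 and 6.03. For Cyp2b9, Cyp2b13 and Cyp2b23 alike the highest array was PB replicate 3 and the highest control array was replicate 1.

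When 1 array was left out, the difference of Cyp2b9 ran from 1.14, without control replicate 3, to 2.62, without control replicate 1. That of Cyp2b13 ran from 2.73, without PB replicate 3, to 3.60, without control replicate 1. The genes of this family resemble each other closely, and which members a probe reads was not tested. The 250 bases before the starts of Cyp2b13 and Cyp2b9, shown because both genes had high levels on the same PB array, were identical at 248 positions (99.2%). They come from RefSeq on build GRCm38.p6, 5′ to 3′ on the strand of the gene. Capitals mark AGGTCA, the half-site of many nuclear receptors, searched on both strands, which began 138 bases before the start in both. It is present in 14.1% of the 6435 tested genes that have such a window.
Cyp2b13, chr7:26061245-26061494 (+ strand): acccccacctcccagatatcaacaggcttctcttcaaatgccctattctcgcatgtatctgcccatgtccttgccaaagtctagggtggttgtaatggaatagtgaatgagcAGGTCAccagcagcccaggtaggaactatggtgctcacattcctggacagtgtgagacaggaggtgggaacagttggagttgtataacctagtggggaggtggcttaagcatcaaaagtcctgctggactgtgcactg
Cyp2b9, chr7:26173159-26173408 (+ strand): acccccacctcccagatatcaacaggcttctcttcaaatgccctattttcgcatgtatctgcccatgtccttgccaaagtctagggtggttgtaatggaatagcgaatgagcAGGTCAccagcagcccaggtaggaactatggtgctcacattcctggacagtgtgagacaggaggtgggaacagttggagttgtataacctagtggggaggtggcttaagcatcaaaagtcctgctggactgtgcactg

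Other P450 genes that CAR or PXR ligands induce did not pass the test. Cyp2a5, which oxidises coumarin, was at 12.61, 11.50, 10.82, 11.13 and 12.28 in PB and 11.14, 10.25, 11.28 and 10.03 in control (0.99 ± 0.36, limma adjusted p = 0.394). Cyp2c55 had a difference of 0.42 ± 0.53, and -0.10 without PB replicate 1, where it reached 7.78. Cyp3a11, the main target of PXR, had 10.07, 7.98, 7.74, 10.38 and 9.05 in PB and 11.13, 9.02, 8.48 and 7.20 in control. Its groups overlapped over most of their range, and the difference of 0.09 ± 0.73 turned sign when 1 of several arrays was left out and under median scaling. The tested Cyp3a genes ranged from -0.37 to 0.09 and the Cyp2c genes from -0.17 to 0.42. Lowest of all P450 genes was Cyp4a14, a fatty acid hydroxylase, at -1.04 ± 0.89 (-0.19 without control replicate 1 and -2.08 without control replicate 2), with 5.94 to 7.45 on the PB arrays and 10.14, 4.47, 6.18 and 9.55 on the control arrays.

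The list of CAR and PXR targets, of which 26 were tested, had 20 differences above 0 and a median of 0.26, where all genes had -0.01. Cyp2b13 was the 1 member that passed, and 8 had an unadjusted p under 0.05 (10.1% of all genes), 6 of them higher and 2 lower in PB. The mean of the list was 8.96 to 9.52 on the PB arrays and 8.38 to 9.34 on the control arrays, so the groups overlapped. Without PB replicate 1, which had the highest mean of the list on any array (9.52), 15 were above 0 and the median was 0.09, as it was without control replicate 4, while it was 0.41 without control replicate 1. Relative to all genes it was 0.14 with the standard background procedure. Among the lower members, Abcc3, an exporter of conjugates, had -0.72 ± 0.26, and Alas1, the first enzyme of haem synthesis, had -0.46 ± 0.21, and -0.28 without control replicate 1. Nr1i3, which encodes CAR itself, had -0.46 ± 0.26, and -0.27 without control replicate 1, at 8.53, 8.11, 8.32, 8.93 and 8.49 in PB and 9.50, 8.53, 9.06 and 8.66 in control. The 14 tested receptors and cofactors had a median of 0.03, which was -0.14 relative to all genes with median scaling and ran from -0.02 without PB replicate 3 to 0.12 without control replicate 4, and none passed in limma (1 at an unadjusted p under 0.05).

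**Figure D3:**
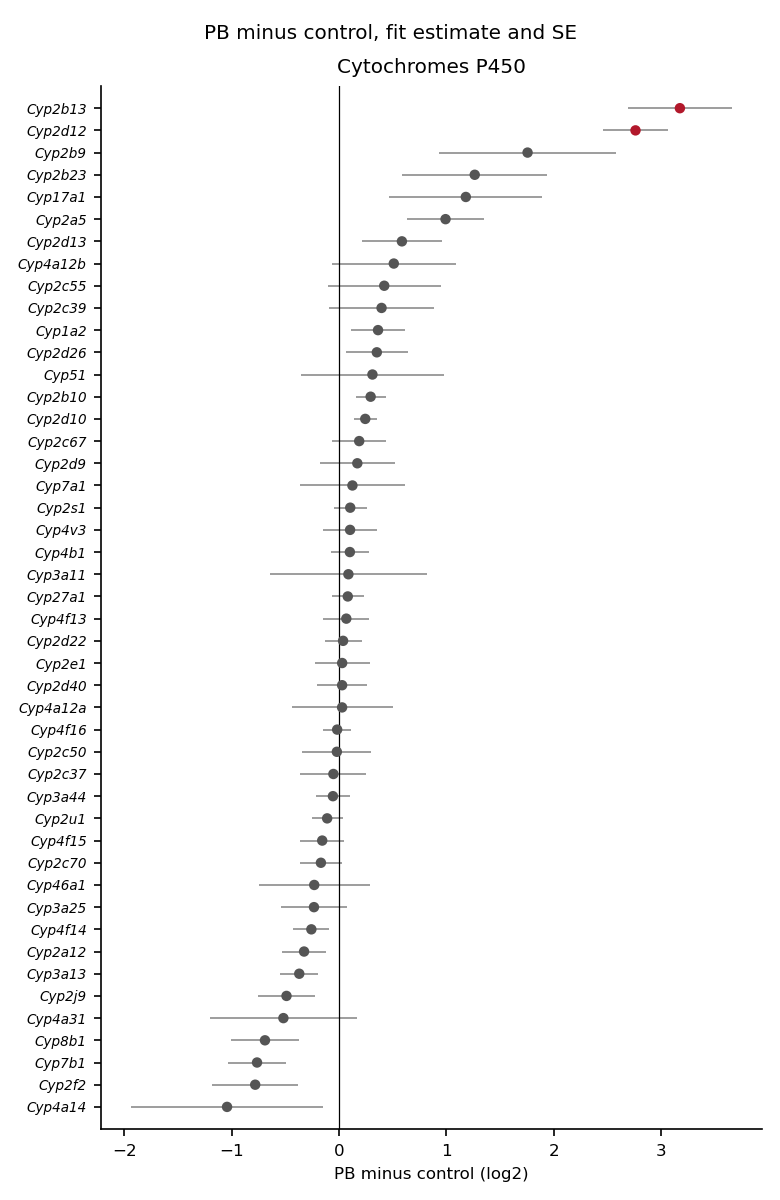
PB minus control (x axis, log2) of the 46 tested P450 genes, as the fit's estimate with its SE, sorted by size. Red marks the 2 genes that passed the test, Cyp2b13 and Cyp2d12, and most other genes lie near 0.

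Most tested genes of sterol synthesis had differences above 0. Cholesterol is built from acetyl-CoA through mevalonate and squalene, and SREBP2, encoded by Srebf2, drives most genes of the route. Of 21 tested genes of cholesterol synthesis and uptake, 19 had a difference above 0 and the median was 0.49. Lss passed, 9 had an unadjusted p under 0.05, all of them higher in PB (4.67% of all genes, in that direction), and 5 had all PB arrays above all control arrays, which held for 1.57% of all genes tested. The mean of the list was 7.71 to 8.67 on the PB arrays, 7.06 to 7.36 on the DCA arrays and 6.61 to 7.68 on the control arrays, so PB and control did not overlap. Without PB replicate 1, the highest, 18 were above 0 and the median was 0.43, and without control replicate 1 all 21 were above 0 and it was 0.81.

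Along the route, Mvd, which makes isopentenyl diphosphate, stood at 8.89, 8.38, 8.32, 6.98 and 8.27 in PB and at 6.35, 7.41, 5.98 and 5.40 in control. PB replicate 4 was below control replicate 2, and the difference was 1.88 ± 0.39 (3.69-fold, limma adjusted p = 0.122). Idi1, the isomerase of the next step, had 6.59, 6.02, 5.98, 5.94 and 6.04 in PB and 5.31, 5.59, 5.02 and 4.44 in control. The groups did not overlap (1.02 ± 0.20, limma adjusted p = 0.108), and against DCA the difference was 1.41 ± 0.20 (limma adjusted p = 0.0237). Fdps, farnesyl diphosphate synthase, had 12.90, 11.21, 11.55, 11.05 and 11.58 in PB and 10.76, 11.01, 10.28 and 8.88 in control (1.42 ± 0.44, limma adjusted p = 0.307), and the difference was 1.11 without PB replicate 1. Srebf2 itself had 0.43 ± 0.27, and 0.23 without PB replicate 1.

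The promoters of the 3 synthesis genes with the lowest p, Lss, Idi1 and Mvd, are shown because these genes were high together. Each line gives 250 bases before the start from RefSeq, build GRCm38.p6, 5′ to 3′ on the strand of the gene, with capitals at CCAAT on either strand, the box bound by the factor NF-Y.
Lss, chr10:76531355-76531604 (+ strand): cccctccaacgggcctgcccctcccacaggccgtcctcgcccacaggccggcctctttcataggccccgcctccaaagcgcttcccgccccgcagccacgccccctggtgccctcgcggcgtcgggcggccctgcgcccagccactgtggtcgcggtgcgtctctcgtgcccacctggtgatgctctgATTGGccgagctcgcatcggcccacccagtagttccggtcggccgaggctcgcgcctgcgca
Idi1, chr13:8885356-8885605 (+ strand): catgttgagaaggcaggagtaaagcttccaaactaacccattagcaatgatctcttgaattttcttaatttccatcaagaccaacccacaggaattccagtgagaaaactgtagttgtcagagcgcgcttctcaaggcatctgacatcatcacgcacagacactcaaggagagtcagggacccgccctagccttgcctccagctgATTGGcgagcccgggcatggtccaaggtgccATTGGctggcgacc
Mvd, chr8:122443423-122443672 (- strand): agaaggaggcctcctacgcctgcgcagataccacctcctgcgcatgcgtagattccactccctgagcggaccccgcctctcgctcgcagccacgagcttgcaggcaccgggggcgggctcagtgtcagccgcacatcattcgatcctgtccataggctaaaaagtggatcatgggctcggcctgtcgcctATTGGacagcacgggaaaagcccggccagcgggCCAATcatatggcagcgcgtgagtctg
In Lss the box begins 62 bases before the start, in Idi1 there are boxes at 45 and 14 bases and in Mvd at 60 and 27 bases. Of the 15 tested cholesterol genes that have a window, 14 hold CCAAT, against 41.1% of the 6435 tested genes with a window. GGGCGG, an Sp1 box, is in 14 of 15, against 61.8%. TCACNCCAC, one form of the sterol response element, is in 0 of 15, against 1.18%, which says only that these letters are not in these windows. A match is a description of the sequence and no evidence of binding.

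Fatty acid and triglyceride synthesis had a median of 0.49 over 16 tested genes, with 13 above 0, 7 higher in PB at an unadjusted p under 0.05 (4.67% of all genes, in that direction) and none past the adjusted threshold in limma. In DCA against the same control arrays the list's median was 0.18. The list's mean was 8.924 to 9.144 on the DCA arrays, above every control array (8.883 or less). Elovl6, which elongates palmitate, was at 10.13, 8.55, 9.82, 8.50 and 8.66 in PB and at 7.79, 7.32, 7.96 and 6.79 in control, with no overlap (1.67 ± 0.36, limma adjusted p = 0.126). Acly, which supplies cytosolic acetyl-CoA, had 0.77 ± 0.25, Acss2, which makes acetyl-CoA from acetate, had 0.99 ± 0.25, and Fasn, the fatty acid synthase, had 0.66 ± 0.18. Genes of fatty acid oxidation and ketogenesis had a median of -0.12 over 20 tested genes, 9 above 0, with a sign that turned when 1 array was left out (-0.28 without PB replicate 1, 0.11 without control replicate 1 and 0.02 without PB replicate 3). Rpia and Pgd, both of the pentose phosphate route, which supplies NADPH, had 0.80 ± 0.17 (limma adjusted p = 0.122) and 1.09 ± 0.30 (limma adjusted p = 0.261). G6pdx, of the same route, went the other way. At a detection threshold of 0.05 it was detected on all 4 control arrays and no PB array, with raw intensities close to the background.

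Glutathione transferases join glutathione to reactive compounds, and many are induced through CAR or through NRF2, a transcription factor activated by electrophiles. Of 20 tested, 15 had differences above 0, 10 had an unadjusted p under 0.05, 9 of them higher in PB (4.67% of all genes, in that direction), and the median was 0.40. The mean of the list was 8.9 to 9.9 on the PB arrays and 8.6 to 9.2 on the control arrays, so the groups overlapped. Without PB replicate 1, which had the highest mean of the list on any array (9.94), 15 were above 0 and the median was 0.20, and without control replicate 4 it was 0.26. In DCA against the same control arrays the list's median was 0.12. The list's mean was 9.205 to 9.259 on the DCA arrays, above every control array (9.155 or less). No gene of this family passed in limma. Gsta1 had 8.99, 10.00, 7.26, 8.44 and 11.12 on the PB arrays, against 6.16, 6.05, 7.17 and 6.53 on the control arrays. The PB arrays were widely spread, replicate 5 the highest and replicate 3 just above the control range (2.69 ± 0.58, limma adjusted p = 0.131). Gsta2 followed the same order of PB arrays, at 8.79, 9.22, 6.75, 8.26 and 10.46, with 7.09, 6.16, 7.22 and 6.78 in control. Gsta1 and Gsta2 are near-identical genes and their probes may share transcripts, which was not tested.

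Gstp2, of the pi class, had 10.59, 7.63, 6.84, 9.18 and 8.38 in PB and 6.52, 6.99, 5.87 and 5.90 in control (2.20 ± 0.58, and 1.69 without PB replicate 1), and its DCA arrays had 7.60 to 8.75. Mgst3, a microsomal transferase, had 9.17, 8.43, 8.61, 7.81 and 8.36 in PB and 7.59, 7.09, 7.17 and 7.23 in control, without overlap (1.21 ± 0.27, limma adjusted p = 0.145). Gstm1, of the mu class, had 0.82 ± 0.26. Of 24 tested NRF2 targets, 20 were above 0 and the median was 0.36, and it was 0.20 without control replicate 4 and 0.21 without PB replicate 1. At an unadjusted p under 0.05, 9 were higher and 2 lower in PB (4.67% and 5.43% of all genes). In DCA against the same control arrays the list's median was 0.08. The list's mean was 7.914 to 8.013 on the DCA arrays, above every control array (7.886 or less). The list holds Gsta1 to Gsta4, Gstm1 to Gstm4 and Gstp1 of the transferase list. It also shares Gsta2, Gstm1, Abcc3 and other genes with the CAR and PXR list, so these lists are not separate results. Cbr3, a carbonyl reductase, was uneven among PB mice, with 7.43, 7.56, 4.68, 5.51 and 8.62 in PB and 4.86, 4.65, 4.86 and 4.67 in control. PB replicates 1, 2 and 5 were the highest for Gsta1, Gsta2, Gstm1 and Cbr3, and replicate 3 was within the control range for Cbr3, Gsta2 and Gstm1, while Gstp2 and Mgst3 had other orders of PB arrays.

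**Figure D4:**
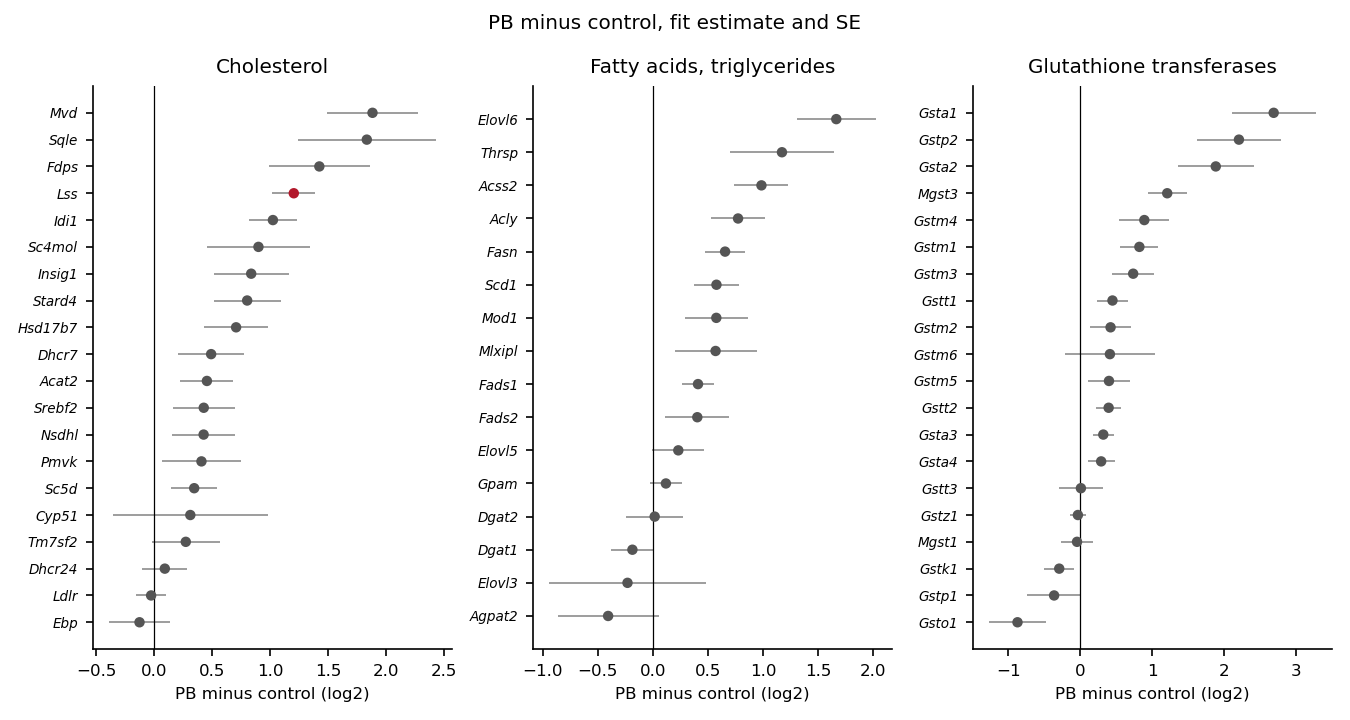
PB minus control (x axis, log2) with its SE for tested genes of cholesterol synthesis and uptake (20 of the 21), fatty acid and triglyceride synthesis (16) and glutathione transferases (20). Most points lie right of 0, and Lss, in red, is the 1 gene that passed the test.

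Hamp2, the second hepcidin gene of the mouse, had the lowest p among the genes above control that did not pass. It stood at 10.67, 11.90, 12.58, 10.27 and 10.02 in PB and at 8.74, 7.28, 7.77 and 9.10 in control, without overlap, with a difference of 2.86 ± 0.51 (7.29-fold, limma adjusted p = 0.0649). Hamp, the gene of the hormone that limits iron export, is likewise on chromosome 7 and had a difference of -0.05 ± 0.36. The 18 tested genes of iron handling had a median of -0.04, which ran from -0.08 without PB replicate 5 to 0.03 without control replicate 2. Next were LOC100040592 at 1.53 ± 0.28, Arrdc3, an arrestin-like adaptor, at 1.69 ± 0.32 and Endod1 at 0.92 ± 0.18, with limma adjusted p of 0.0676, 0.0892 and 0.0907. Arrdc3 had 9.02 to 9.76 on the PB arrays and 7.24 to 8.02 on the control arrays. A730008H23Rik (1.26 ± 0.26), 2610207I05Rik (0.79 ± 0.16) and Lrrc24 (1.76 ± 0.36) followed, each without overlap.

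On the lower side, Dct, dopachrome tautomerase, known from melanin synthesis, had 5.10, 6.25, 5.48, 6.51 and 5.55 in PB and 8.87, 8.44, 7.64 and 7.07 in control. Its difference of -2.22 ± 0.40 (4.67-fold lower) had a limma adjusted p of 0.0649, and the DCA arrays, at 6.65 to 8.24, overlapped the control range. Tatdn2 (-0.83 ± 0.15) and Zfp771 (-0.91 ± 0.17) had the same adjusted p. Aig1 (-0.74 ± 0.15), Ube2m, an enzyme that conjugates NEDD8 (-0.94 ± 0.21), Serinc2 (-0.81 ± 0.18), LOC327956 (-0.57 ± 0.12) and Inhbc, a liver subunit of activin C (-0.68 ± 0.15), had values in PB below every control value. None of these genes passed in limma.

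Most interferon and MHC class II genes were above control, and most acute phase genes below it. Of 29 tested interferon response genes, 24 had differences above 0, 7 of them at an unadjusted p under 0.05 (4.67% of all genes, in that direction), and the median was 0.27, and 0.16 without PB replicate 3. The list's mean was 6.792 to 7.478 on the PB arrays and 6.535 to 7.045 on the control arrays, so the groups overlapped. Ubd, a ubiquitin-like modifier induced by interferon, had 10.04, 7.91, 6.04, 6.69 and 9.03 in PB and 4.86, 4.99, 5.24 and 5.17 in control. Every PB array was above every control array, but the PB arrays spanned 4 log2 units (2.88 ± 0.61, limma adjusted p = 0.122), and the difference was 2.35 without PB replicate 1. Psmb9, of the immunoproteasome, had 0.48 ± 0.17 without overlap, and Usp18, which removes ISG15, had 0.85 ± 0.33. Of 10 tested genes of MHC class II presentation 8 were above 0. Their mean was 6.086 to 6.613 on the PB arrays and 5.592 to 6.681 on the control arrays, so the groups overlapped. Their median was 0.23 with all arrays, 0.05 without control replicate 1, 0.15 without PB replicate 5 and 0.40 without control replicate 2. It was 0.08 relative to all genes with the standard background procedure, and 3 had an unadjusted p under 0.05, all higher in PB (4.67% of all genes, in that direction). H2-Aa had 0.80 ± 0.26, and 0.53 without control replicate 1, and H2-Ea 0.67 ± 0.21. Of 23 acute phase genes 19 were below 0, 4 at an unadjusted p under 0.05 (5.43% of all genes, in that direction). The median was -0.26, and -0.13 without control replicate 2, which had the highest mean of the list. In DCA against the same control arrays the list's median was -0.27. The list's mean was 10.463 to 11.300 on the PB arrays and 10.804 to 11.498 on the control arrays, so the groups overlapped. Fga, a chain of fibrinogen, had -0.30 ± 0.11 and Itih4 had -0.42 ± 0.15. No gene of these 3 lists passed in limma.

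Liver genes with a sex bias were examined because Cyp2b13 is one. Of 15 tested female-biased genes, 10 had differences above 0 and the median was 0.17. It was 0.06 without control replicate 4, 0.09 without control replicate 3, 0.27 without PB replicate 4 and 0.30 without control replicate 1, and 0.03 relative to all genes with the standard background procedure. Cyp2b13 was the 1 that passed, and Cyp17a1, of steroid synthesis, had 1.18 ± 0.71 (0.64 without control replicate 2 and 1.84 without control replicate 1) and ran from 6.75 to 8.84 in PB and from 5.36 to 8.96 in control. Of 25 tested male-biased genes, 18 were below 0 and the median was -0.23, and it was -0.37 without control replicate 4 and -0.07 without PB replicate 1, which had the lowest mean of the list on any array (9.05). Serpina3k had 5.01, 5.53, 5.35, 5.67 and 5.62 in PB and 6.25, 5.88, 5.81 and 6.00 in control, without overlap (-0.55 ± 0.15, limma adjusted p = 0.259). Cyp7b1, an oxysterol hydroxylase, had -0.76 ± 0.27. Hsd3b5, of steroid metabolism, had 6.41, 8.70, 7.11, 10.45 and 9.06 in PB and 7.44, 11.53, 11.50 and 9.57 in control. The mean of the female list was 6.9, 5.0, 5.1 and 6.5 on control replicates 1 to 4, and 5.90 to 6.74 on the PB arrays. That of the male list was 9.6, 10.4, 10.4 and 9.7 on the same control arrays, and 9.05 to 10.22 on the PB arrays. Control replicates 1 and 4 were thus higher in the female list and lower in the male list than replicates 2 and 3.

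Most erythroid markers had lower values in PB than in control. Of 10 tested erythroid markers 8 were below 0, 6 at an unadjusted p under 0.05 (5.43% of all genes, in that direction), and 4 without overlap, which held for 1.91% of all genes. The median was -0.72, and PB arrays had list means of 6.31 to 6.97 against 7.02 to 7.54 in control. Hbb-b2, a beta globin, had 5.84, 6.17, 6.55, 6.47 and 5.21 in PB and 6.75, 7.20, 6.62 and 7.91 in control (-1.08 ± 0.31), and Hbb-b1 had -0.96 ± 0.29. The 2 globin genes are near-identical. Slc4a1, the anion exchanger of red cells, had -1.20 ± 0.26 and was detected on 2 of 5 PB and 4 of 4 control arrays. No marker passed in limma. Relative to all genes the list's median was -0.21 with the standard background procedure. In DCA arrays the list's median against control was -0.63, from the same control arrays. In pieces of tissue, fewer cells of a type and less RNA per cell cannot be told apart.

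All 8 tested platelet markers were below 0 with a median of -0.57, but this rested on control replicate 4, without which it was -0.05. Treml1, of platelet granules, had 4.94, 4.66, 4.40, 4.42 and 4.54 in PB and 4.48, 5.01, 4.75 and 7.22 in control. The 4 tested neutrophil markers had a median of -0.54, -0.05 without control replicate 2 and -0.93 to -0.29 without 1 of the other control arrays. All 12 Kupffer cell markers were below 0, by a median of -0.17, which was 0.18 without control replicate 2 and close to 0 without PB replicate 1. Lyz2, lysozyme, had -1.07 ± 0.51. For these lists PB replicate 1 or 1 control array set the value, and the part of cell content in other results was not tested. Hepatocyte markers had a median of 0.06, which was -0.09 relative to all genes with median scaling.

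Genes of the clock had a median of 0.42, with 13 of 14 above 0. Their mean was 7.06 to 7.80 on the PB arrays and as low as 5.92 on control replicate 2, and without that control array 8 of 14 were above 0 and the median was 0.18. Relative to all genes, the median was 0.43, against 0.05 with the standard background procedure and 0.15 without background correction. In DCA against the same control arrays the list's median was 0.47. Dbp, a transcription factor with a strong daily rhythm, had 11.50, 11.55, 11.58, 11.51 and 10.93 in PB and 11.50, 7.38, 11.58 and 9.96 in control, so its difference of 1.31 ± 0.64 was 0.40 without control replicate 2. Per2, a repressor of the clock, had 1.11 ± 0.39.

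PB replicate 1 was the extreme array for several further genes. Igf2, a fetal growth factor, had 9.39, 5.82, 4.73, 5.37 and 6.54 in PB and 4.63, 4.72, 4.81 and 6.44 in control (1.22 ± 0.72), and 0.46 without that array. Glul, glutamine synthetase of the cells around the central vein and a target of beta-catenin, had 8.48, 6.34, 6.21, 6.31 and 6.56 in PB and 5.84, 5.93, 6.41 and 5.23 in control, a difference of 0.93 ± 0.41, and 0.50 without that array. Ccnd1, cyclin D1, had 10.66 on that array and 7.82 to 8.67 on the other PB arrays, and its difference was 0.85 with it and 0.37 without. Ly6d had 11.29 there and 4.50 to 7.71 on the others, with differences of 2.36 and 1.28. The mean of the 13 tested liver tumour and oncofetal genes was 7.69 on PB replicate 1, 7.20 on PB replicate 5 and 5.89 to 6.41 on the other PB arrays. It was 6.22 or less on every control array. That of the 16 pericentral genes was 9.26 on PB replicate 1, 7.99 or less on the other PB arrays and 8.02 or less in control. Means of periportal, Kupffer cell, stellate cell and endothelial genes were the lowest of all 13 arrays on PB replicate 1.

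Without that array the median of the tumour list was 0.17 in place of 0.35, and that of the pericentral list 0.11 in place of 0.20, which was 0.08 without control replicate 4 and 0.30 without PB replicate 3. Relative to all genes, both lists were at 0.08 with the standard background procedure. Gdf15, a stress hormone, did not rest on it, with 6.23, 6.86, 7.40, 7.07 and 6.74 in PB and 5.93, 6.18, 5.97 and 5.65 in control (0.93 ± 0.22, limma adjusted p = 0.187) and 1.08 without it. Tff3, a trefoil peptide, was highest on PB replicate 5 (9.56), with a difference of 1.74 ± 0.73, and 1.03 without that array. Tbx3, a target of beta-catenin, had 0.87 ± 0.24. Cell cycle genes had a median of 0.08 over 15 tested, and 0.01 without PB replicate 1, which had the highest mean of the list, while without other arrays it was 0.04 to 0.17. Foxm1, which drives mitotic genes, had 0.43 ± 0.14 without overlap. It was the 1 gene of the 15 with all PB arrays above all control arrays, which held for 1.57% of all genes tested. Hspb1, a small heat shock protein, had 8.97, 8.69, 7.74, 8.15 and 8.37 in PB and 7.84, 6.89, 7.07 and 6.73 in control (1.26 ± 0.28, limma adjusted p = 0.143). Of the 14 tested heat shock genes, 1 had an unadjusted p under 0.05, higher in PB (4.67% of all genes, in that direction). The list's median was 0.17, and 0.01 without control replicate 4. In DCA against the same control arrays it was 0.27.

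**Figure D5:**
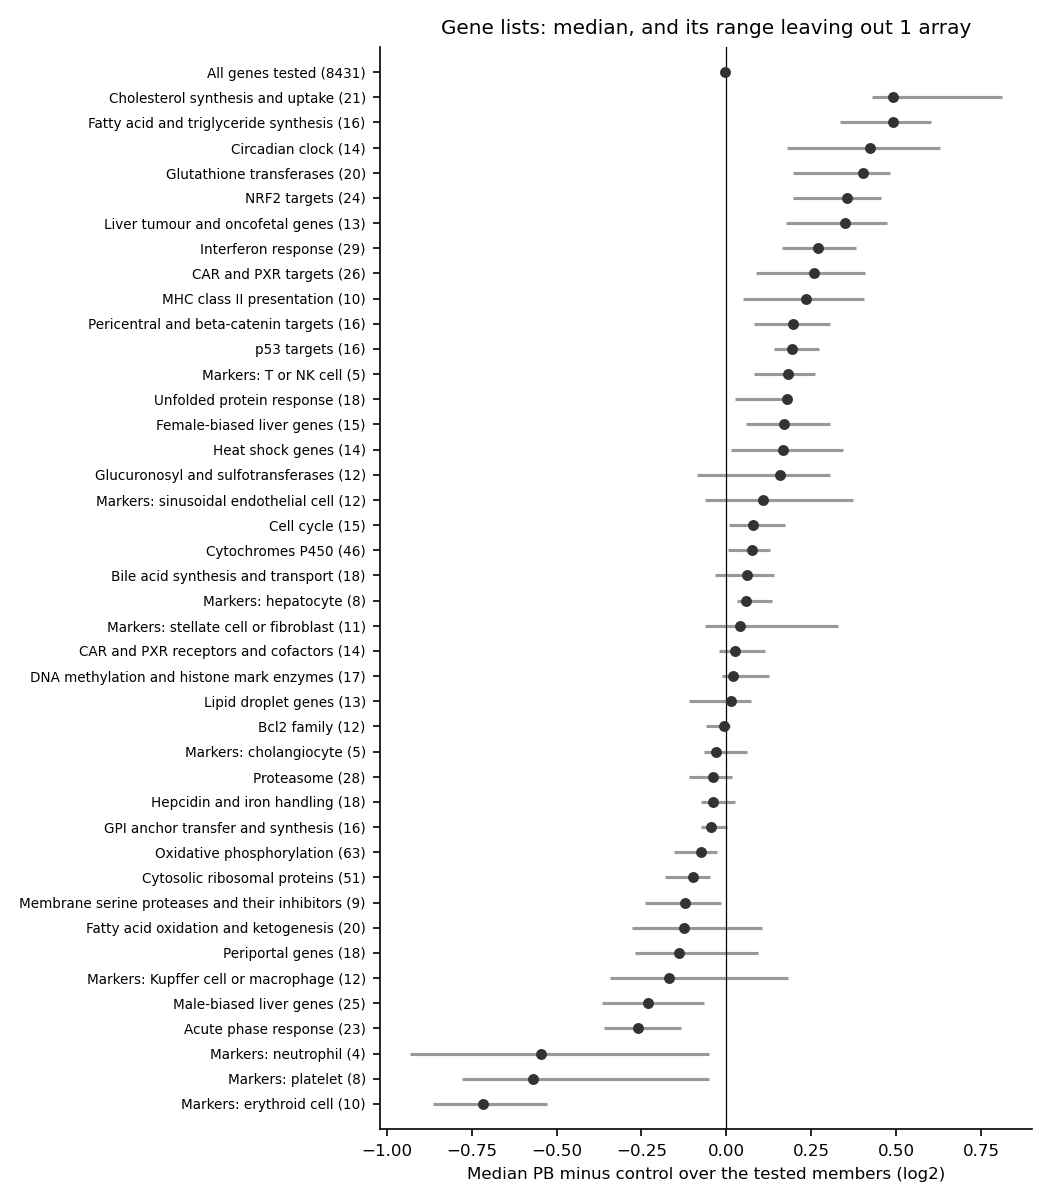
Median PB minus control (x axis, log2) over the tested members of each gene list with 4 or more tested genes, the number tested in brackets, and as a grey bar the range of that median when 1 PB or control array is left out. Cholesterol and fatty acid synthesis lie at 0.49 and erythroid markers at -0.72, while all genes tested lie at -0.01.

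At the detection threshold of 0.05, 2 genes were detected on all 5 PB arrays and no control array, Aire and Ptges, and 4 on all 4 control arrays and no PB array, 2510040D07Rik, G6pdx, Irs1 and Rom1. Their raw intensities lay close to the background. At a threshold of 0.01 the counts were 0 and 4, and the 4 genes were others.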

How the data were processed

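Liver RNA was measured on 13 arrays, 1 per mouse, grouped by the treatment labels (5 PB, 4 DCA, 4 control). The authors deposited intensity values on a linear scale with a detection p-value per gene and array, 18138 genes in all, made with GenomeStudio, per the submitters' processing notes, which name no version. They also deposited a table of normalized intensity values for 18110 genes, whose steps are unknown, and it served as an alternative. Replicate numbers name arrays and pair nothing. Arrays are of separate animals by their numbers in the labels.

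Background was corrected with normexp of limma 3.58.1 in R 4.3.3 (offset 16), from the detection p-values of 13668 genes taken to be read by a single probe. This was inferred from their detection p-values, which were whole steps of 1 in 798 on every array. The other 4470, Prss8 among them, were taken to have combined p-values. The corrected intensities were put on the log2 scale and quantile normalized. Genes with a detection p under 0.05 on at least 4 arrays were tested (8431 genes, 46.5%) with lmFit and eBayes on all 13 arrays, two-sided, with Benjamini-Hochberg adjustment. The fit was tested on simulated data. In 21 cases a gene name turned into a date was restored, and 14307 names are current symbols of assembly GRCm38.p6, 2927 are synonyms and 904 have no match there.

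Gene lists (44) and the members of the comparison were chosen with earlier results of these data known. Genes named are those that passed, then those of smallest p up to 15 per direction, up to 4 per list by smallest p, and 25 single genes, of which the text gives part. Cyp2b23, Cyp2d13, Cyp4a14, Cyp17a1, Epor, Fdps, Hamp, Hsd3b5, Klf1, Spna1 and the genes given only as the extreme of a P450 family were chosen after their values were seen. The design had assumed 1 row per probe, but the table holds 1 row per gene. Alternatives covered background, offset, scaling, the authors' table, filters, arrays in the fit, weights, variance trend and leaving out each array. A few list members are left unnamed and not reported here.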

Additional observations from a re-analysis of the deposited data

Results flagged for a closer look

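In 243 groups of arrays (the genes named, each in PB, DCA and control), 15 arrays lay far from the others of their group by Dixon's criterion, and chance gives about 1 in 20 groups. PB replicate 1 was far above the other PB arrays for Prss8 (9.15), Idi1 (6.59), Glul (8.48), Fdps (12.90) and Cyp2c55 (7.78). PB replicate 3 was far above for Cyp2b9 (10.47) and far below for Bad (6.59). PB replicate 4 was far below for Cyp17a1 (6.75) and PB replicate 5 for Dbp (10.93). Among control arrays, replicate 1 was far above for Cyp2b10 (4.86), replicate 2 for Pigt (8.46) and replicate 4 for Igf2 (6.44), and replicate 4 was far below for Cyp7b1 (11.88). Among DCA arrays, replicate 3 stood apart for Cyp2b10 (4.60) and replicate 4 for Itih4 (12.63).

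PB and DCA, set against the same control, differed from each other in limma at Cyp2b13 (a difference of 3.53), Cyp2d12 (1.86), Prss8 (2.18) and Pigt (-0.87).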

How the results depend on the processing

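The count of genes that passed in PB against control (7) was 2 with the background fitted on all rows, 0 with median scaling (573 at an unadjusted p under 0.05), 4 without a filter, 12 among genes detected on all 13 arrays and 2 with only the groups compared in the fit. Leaving out 1 array gave 1 to 13 genes: control replicates 3 and 4 and PB replicate 5 left 1 when omitted, control replicate 1 and PB replicate 2 left 3, PB replicate 1 left 5, all among the 7, and PB replicate 4 gave 13. With median scaling the median of all genes was -0.258, so its differences are to be read relative to that. The genes that also passed against DCA (4 of 7) numbered 1 with the background fitted on all rows, without background correction, with offset 50, with cyclic loess and with the authors' table, 0 with median scaling or no filter, 7 with array weights and 1 to 4 when 1 array was left out. Over 22 alternatives Cyp2d12 passed in 21, Metrn in 16, Pigt in 13, Lss in 10, Bad in 8, Prss8 in 7 and Cyp2b13 in 10 of 21, and no difference of these 7 genes turned sign. The causes were not tested. Quantile normalization on the linear scale, chosen after seeing the data, gave 6 genes. Among genes near 0, Cyp2c55 turned to -0.14 with array weights and was -0.10 to 0.62 when 1 array was left out, Cyp3a11 turned to -0.34 with median scaling and was -0.50 to 0.81, and Hamp turned to 0.06 with array weights and was -0.27 to 0.18. Relative to all genes, the medians of the lists of cholesterol (0.36 to 0.51), fatty acid synthesis (0.30 to 0.49), glutathione transferases (0.24 to 0.43) and erythroid markers (-0.76 to -0.21) kept their sign under every scaling. Genes detected on all PB and no control arrays numbered 0 at a detection p under 0.01. No paired analysis was possible because the labels give no replicate numbers shared between groups. A block for slide or scan was not run, since the files name neither. Signal over background limits the dim genes, such as Cyp2b10 and Cyp2b13 in control.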
